A study of Mus musculus with 2 samples.

Results

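Schwann cell and myelin genes were examined in RNA of mouse hindlimb muscle as a set of 6 genes, Mbp, Pmp22, Sox10, S100b, Egr2 and Ngfr. They were chosen by exact gene symbol, and each had 1 line in the deposited table of 44787 genes. The mutant animals carried both SRSF2 flox alleles together with MyoD-Cre (SRSF2 flox/flox MyoD-Cre, the MyoD-Cre library), and the controls carried SRSF2 flox/flox alone (the control library). The floxed alleles were common to both groups, and no Cre allele is labelled in the control. Cre acts in cells of the muscle lineage under MyoD control, not in Schwann cells by design. Srsf2, a splicing factor of the serine- and arginine-rich family, is the floxed gene. Neither age nor sex, nor the number of animals behind a library, is given in the labels. The values are FPKM, which scale the fragments of a gene by its length and by the reads of the library.

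Schwann cells are the glia of peripheral nerves and arise from the neural crest, whereas muscle fibres arise from the somites. They wrap motor and sensory axons inside the muscle, and at the neuromuscular junction terminal Schwann cells cover the nerve ending. Sox10 drives the lineage and, with Egr2, switches on the myelin genes, and Mbp and Pmp22 are among the products that build the sheath. S100b is a calcium-binding marker of the glia, and Ngfr is a receptor of immature, non-myelinating and injured Schwann cells. Several of these genes are also known outside nerve, Pmp22 in fibroblasts and epithelia, S100b in fat and cartilage cells, Ngfr in mesenchymal cells and Egr2 as an early response gene.

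With 1 library for each genotype, nothing here has a replicate check or a p-value, and higher or lower refers to these 2 libraries alone. The MyoD-Cre library held 76702198 reads, of which 79.99% were mapped (95% Wilson interval 79.98 to 80.00), and the control library 69422626 reads, of which 81.43% were mapped (81.42 to 81.44). Srsf2 was at 19.4 FPKM (MyoD-Cre) and 31.1 FPKM (control). The 16 skeletal muscle fibre genes were all measured, with 1 lower by the 2-fold rule given below, Myh8 of perinatal fibres at 6684 FPKM (MyoD-Cre) and 15047 FPKM (control). Of the other muscle genes, 3 had higher values in the MyoD-Cre library, and the sum, which a few abundant genes carry, was 30478 FPKM (MyoD-Cre) and 53596 FPKM (control). Markers of skin were abundant in the MyoD-Cre library. The 17 keratinocyte markers summed to 2118 FPKM (MyoD-Cre) and 14.4 FPKM (control). The median of 13175 measured genes, those that reached 1 FPKM in either library, lay at 0.18 on the scale of log2((MyoD-Cre FPKM + 1)/(control FPKM + 1)), called the difference below. Differences are therefore also given relative to the median gene.

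None of the 6 genes differed by the 2-fold rule of size used here, a difference of at least 1 or at most -1. Of the 13175 measured genes, 2.68% were higher and 0.744% were lower in the MyoD-Cre library by this rule, so 78.27% of the genes past it were higher, against 60.19% after scaling to the median gene. In the MyoD-Cre library Ngfr, Pmp22, Mbp and Egr2 had higher values and Sox10 and S100b had lower ones, by 1.36-fold at most. After scaling the libraries to the median gene, Pmp22 and Egr2 had values slightly below those of the control library. Sox10 was the lowest of the set relative to the median gene and Ngfr the highest. Of the 6 genes, 5 were measured, since Egr2 stayed under 1 FPKM in both libraries.

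**Figure D1:**
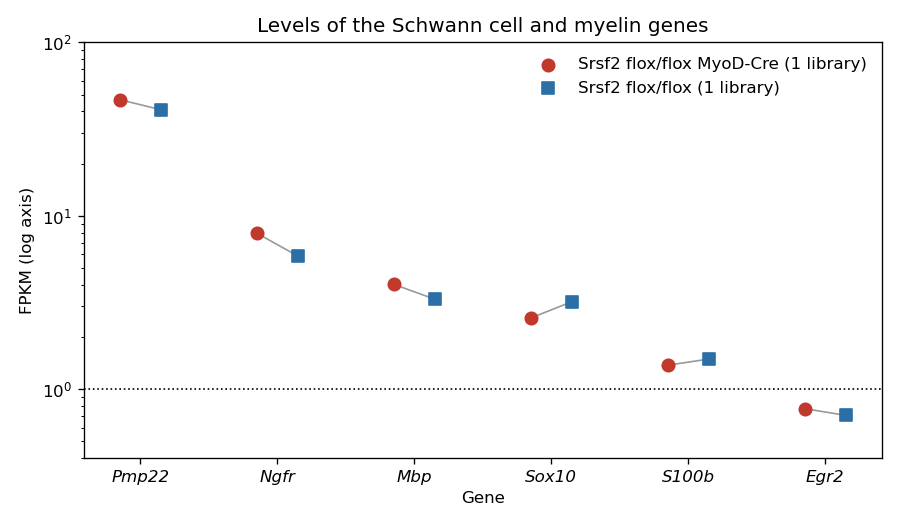
FPKM (log axis) of the 6 Schwann cell and myelin genes, ordered by their level in the control library, with circles for the MyoD-Cre library and squares for the control library; the dotted line marks 1 FPKM. Pmp22 lies at 46.7 FPKM (MyoD-Cre) and 40.9 FPKM (control) and Egr2 at 0.771 FPKM (MyoD-Cre) and 0.706 FPKM (control), and each pair lies within 2-fold.

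The order of levels per length was Pmp22, Ngfr, Mbp, Sox10, S100b and Egr2 in both libraries. A level has a 95% Poisson interval from the whole reads recovered from the FPKM, which covers counting error only and, for Mbp and Egr2, may be too wide because their reads are a minimum. In the MyoD-Cre library the intervals of neighbours in this order did not overlap for Mbp (3.37 to 4.76 FPKM) and Sox10 (2.23 to 2.95 FPKM). In the control library those of Mbp (2.70 to 3.99 FPKM) and Sox10 (2.80 to 3.63 FPKM) overlapped. The intervals of S100b and Egr2 overlapped in the MyoD-Cre library (1.06 to 1.75 and 0.489 to 1.16 FPKM) and did not overlap in the control library (1.15 to 1.90 and 0.431 to 1.09 FPKM). The other neighbours in the order did not overlap in either library.

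Among the transcription factors, Sox10, the SoxE factor that specifies and maintains the Schwann lineage, was at 2.57 FPKM (MyoD-Cre) and 3.19 FPKM (control). Sox10 lies on chromosome 15, from 79154909 to 79165235 on the minus strand. The ratio of MyoD-Cre to control was 0.805 (95% counting interval 0.664 to 0.976) from 200 reads (MyoD-Cre) and 236 reads (control). Relative to the median gene the ratio was 0.697 (0.575 to 0.845), and 11.2% of the measured genes had a lower difference than Sox10. Both intervals lie below 1, and both lie above a ratio of 0.5. In bulk tissue, fewer cells of a type and less RNA per cell cannot be told apart.

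Egr2 (Krox20), the zinc finger factor of myelination, was at 0.771 FPKM (MyoD-Cre) and 0.706 FPKM (control). At least 23 reads (MyoD-Cre) and 20 reads (control) lie behind these values, and the ratio of 1.09 had an interval of 0.574 to 2.10. As these reads are a minimum, the interval may be wider than the true counting error. Egr2 is also known as an early response gene that serum response factor induces through CArG boxes. The deposited Egr2 gene runs from 67537869 to 67542188 on the plus strand of chromosome 10, and RefSeq (GRCm38.p6) lists a start at its first base. A CArG box lies 72 bases before that start. The stretch around it, at chr10:67537787-67537816 on the plus strand, is shown with capitals marking the box. This element was found in the windows of no other member searched, and Mbp and Sox10 were not searched.
Egr2: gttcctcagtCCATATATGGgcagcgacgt
The CArG consensus, searched after the windows had been seen, reads the same on both strands and stood in 1.47% of 32851 RefSeq windows of 250 bases before a start. The SOX letters ACAAAG stood in 16.5%, the EGR letters GTGGGCG in 7.02% and the TATA letters TATAAA in 12.4% of the windows, on either strand. The 11 RefSeq windows of members searched belong to 4 genes, Pmp22, S100b, Egr2 and Ngfr. Windows of Mbp were left out by choice, and Sox10 had none. The CArG consensus stood in 4 windows, all of Egr2, but 3 of these overlap and share the box shown, so there were 2 distinct matches. The EGR letters stood in 1 window, before a more upstream start of Egr2. None of the 11 held the SOX or TATA letters. These are matches of letters, not binding sites.

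Among the myelin proteins, Pmp22, a membrane protein of compact myelin whose gene dose sets the integrity of the sheath, had the highest level of the set. It was at 46.7 FPKM (MyoD-Cre) and 40.9 FPKM (control). The ratio was 1.14 (1.08 to 1.21) from 2427 reads (MyoD-Cre) and 2018 reads (control) with the values as deposited, and 0.99 (0.932 to 1.05) relative to the median gene. Of the measured genes, 51.1% had a lower difference than Pmp22.

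The deposited Pmp22 value pools transcripts from several starts. The gene runs from 63128967 to 63159547 on the plus strand of chromosome 11, and RefSeq lists 4 starts, the first and last 3821 bases apart. Alternative first exons of Pmp22 are known, one used mainly by myelinating Schwann cells and another in many tissues, and the values per gene cannot separate them. The 250 bases before the first and before the second listed start are shown because the value pools transcripts that begin behind such separate stretches, chr11:63128732-63128981 and chr11:63131207-63131456, both on the plus strand of GRCm38.p6 from RefSeq. Neither overlaps an annotated Pmp22 exon in GENCODE M21, and none of the motifs searched stands in them, so neither holds capitals. Their G and C bases make up 48.8% of the first window and 61.2% of the second.
Pmp22 first start: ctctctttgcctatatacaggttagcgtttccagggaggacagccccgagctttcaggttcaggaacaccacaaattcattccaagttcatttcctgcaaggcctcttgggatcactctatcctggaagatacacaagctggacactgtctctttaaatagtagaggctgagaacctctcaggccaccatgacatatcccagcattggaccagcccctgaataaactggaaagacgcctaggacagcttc
Pmp22 second start: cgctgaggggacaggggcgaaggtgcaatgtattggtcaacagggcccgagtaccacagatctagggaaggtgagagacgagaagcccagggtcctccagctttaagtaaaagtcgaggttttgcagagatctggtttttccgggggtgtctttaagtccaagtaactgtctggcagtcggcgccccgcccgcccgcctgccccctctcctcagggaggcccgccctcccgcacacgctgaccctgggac

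Mbp, the myelin basic protein that holds the cytoplasmic faces of the membrane together, was at 4.02 FPKM (MyoD-Cre) and 3.30 FPKM (control). The ratio was 1.22 (0.939 to 1.59) from at least 136 reads (MyoD-Cre) and 106 reads (control), and 1.06 (0.813 to 1.37) relative to the median gene. Both intervals hold 1, and they may be too wide because these reads are a minimum. The deposited Mbp gene spans 110510 bases of chromosome 18, from 82475128 to 82585637 on the plus strand. Its span begins at the upstream starts that 4 of 16 annotated transcripts use, known as Golli transcripts and found also outside myelin. The other 12 transcripts begin 79.3 kb downstream or further, where the classic myelin transcripts start. The value per gene pools Golli and classic transcripts. Rpl21-ps8, typed as ncRNA, lies inside the span on the other strand, at 11.8 FPKM (MyoD-Cre) and 9.10 FPKM (control). Whole spans were compared, and whether it shares an exon with Mbp was not tested. Over a shared exon, reads of both cannot be told apart without strand, whose setting is not given.

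**Figure D2:**
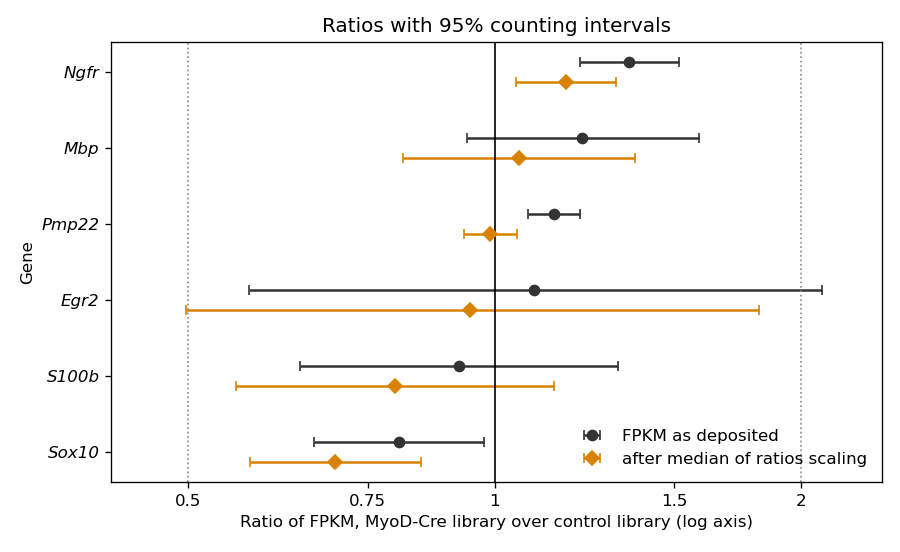
Ratio of FPKM in the MyoD-Cre library to that in the control library (log axis) for the 6 genes, with circles for the deposited values and diamonds after scaling to the median of ratios; bars are exact 95% counting intervals and dotted lines mark 2-fold. Ngfr lies at 1.36 and 1.17, Sox10 at 0.805 and 0.697, and the interval of Egr2 is the widest.

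S100b, the calcium-binding protein by which Schwann cells are often stained, was at 1.37 FPKM (MyoD-Cre) and 1.49 FPKM (control). With 64 reads (MyoD-Cre) and 66 reads (control), the ratio was 0.921 (0.643 to 1.32), and it was 0.798 (0.557 to 1.14) relative to the median gene. The interval holds 1 on both scales. S100b lies on chromosome 10, from 76253836 to 76261319 on the plus strand, and in GENCODE M21 the end of Dip2a overlaps it on the other strand over 1891 bases. Dip2a was at 3.65 FPKM (MyoD-Cre) and 4.42 FPKM (control). Whole spans were compared here too, and the same limit of strand holds over any shared exon. Of 14 measured adipocyte genes, 10 were higher by the rule and none lower, while Plin4, a lipid droplet protein, was at 3.17 FPKM (MyoD-Cre) and 6.57 FPKM (control). The 16 adipocyte markers summed to 758 FPKM (MyoD-Cre) and 327 FPKM (control). Most of that sum was Fabp4, a fatty acid binding protein, at 495 FPKM (MyoD-Cre) and 262 FPKM (control). Of 10 measured cartilage genes, 1 was higher by the rule and none lower, and the 12 markers summed to 184 FPKM (MyoD-Cre) and 104 FPKM (control). Their part in the value of S100b was not tested.

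Ngfr, the p75 neurotrophin receptor, was at 7.93 FPKM (MyoD-Cre) and 5.85 FPKM (control), the largest difference of the set at 0.38. It lies on chromosome 11, from 95568818 to 95587698 on the minus strand. The ratio was 1.36 (1.21 to 1.52) from 759 reads (MyoD-Cre) and 532 reads (control) and stayed above 1 relative to the median gene, at 1.17 (1.05 to 1.31). Of the measured genes, 76.4% had a lower difference than Ngfr. Fibroblast markers were also higher in the MyoD-Cre library, with a median difference of 0.54 over 11 measured genes and none past the rule. Their sum was 4810 FPKM (MyoD-Cre) and 2954 FPKM (control). Keratinocyte genes were higher too, 16 of 17 by the rule, with Krt1 at 669 FPKM (MyoD-Cre) and 2.48 FPKM (control). The part of these cells in the value of Ngfr was not tested.

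Of the defining markers fixed for the cell type beside the members, Erbb3, the Schwann neuregulin receptor, was at 5.48 FPKM (MyoD-Cre) and 4.59 FPKM (control), Cdh19, a cadherin of the early lineage, at 1.13 FPKM (MyoD-Cre) and 1.29 FPKM (control), and Mag, the adhesion protein of the inner wrap, at 0.700 FPKM (MyoD-Cre) and 0.779 FPKM (control). These markers and all 6 members had values above 0 in both libraries.

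The other genes of Schwann cells were described with 7 lists holding 112 distinct genes, all found in the table, of which 73 were measured. By the rule of size 1 of the 73 (1.37%) was higher and none lower in the MyoD-Cre library, against 2.68% and 0.744% of all measured genes. Their median difference was 0.22, against 0.18 for all measured genes, and 32 of the 73 lay below the median gene.

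**Figure D3:**
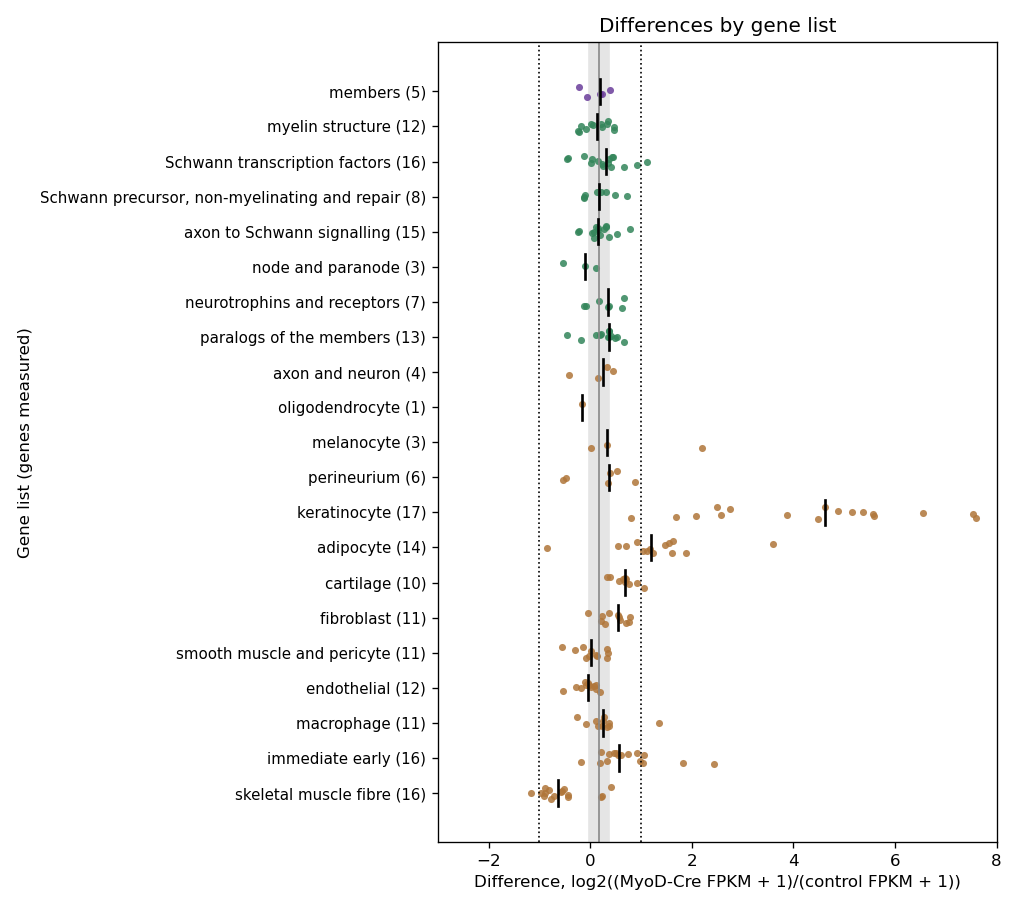
Difference of each measured gene by list, with the number of measured genes in brackets; the first row holds the 5 measured members, the next 7 rows the Schwann and myelin lists and the rest other cell types and tissues. Black ticks are list medians, the grey band spans the quartiles of all measured genes (-0.02 to 0.37), and dotted lines mark 2-fold. Of the Schwann and myelin rows, Tfap2a alone lies past 2-fold, and the keratinocyte row reaches 7.59.

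In the myelin structure list, 12 of 20 genes were measured, none passed the rule, and the median difference of 0.13 had 6 genes on either side of the median gene. Among the highest were Cd9, a tetraspanin, at 49.4 FPKM (MyoD-Cre) and 35.7 FPKM (control), and Cadm4, which binds axonal adhesion molecules, at 7.92 FPKM (MyoD-Cre) and 6.04 FPKM (control). The lowest were Drp2 at 1.10 FPKM (MyoD-Cre) and 1.47 FPKM (control), Prx at 2.83 FPKM (MyoD-Cre) and 3.48 FPKM (control), and Gjc3, a connexin of Schwann cells, at 2.11 FPKM (MyoD-Cre) and 2.55 FPKM (control). Prx (periaxin) and Drp2 form a complex that ties the outer Schwann cell membrane to dystroglycan. Prx had a ratio of 0.812 (0.711 to 0.927), and Cd9 one of 1.38 (1.28 to 1.49). The genes of the sheath did not share 1 direction.

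Among the Schwann transcription factors, 16 of 18 were measured, 1 was higher and none was lower by the rule, with a median difference of 0.30. The lowest were Sox8, the SoxE relative of Sox10, at 3.78 FPKM (MyoD-Cre) and 5.57 FPKM (control), and Nfatc4, a calcineurin-dependent partner of Sox10, at 3.22 FPKM (MyoD-Cre) and 4.69 FPKM (control). Their ratios were 0.679 (0.586 to 0.786) for Sox8 and 0.687 (0.599 to 0.788) for Nfatc4, beside 0.805 for Sox10. Which cells the values of Sox8 and Nfatc4 come from was not tested. Foxd3, a factor of the early neural crest, was at 1.34 FPKM (MyoD-Cre) and 1.53 FPKM (control). The highest was Tfap2a at 1.33 FPKM (MyoD-Cre) and 0.0756 FPKM (control), a factor of neural crest cells and also of the epidermis. Jun, which drives the repair state of injured Schwann cells and is an immediate early gene of many cells, was at 26.9 FPKM (MyoD-Cre) and 13.8 FPKM (control). Id4, an inhibitor of helix-loop-helix factors, was at 7.73 FPKM (MyoD-Cre) and 4.47 FPKM (control). The part of skin in the values of Tfap2a and Jun was not tested.

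Of 18 genes of precursor, non-myelinating and repair Schwann cells, 8 were measured and none passed the rule, with a median difference of 0.17. Gap43, a growth-associated protein of axons and of immature Schwann cells, had the highest difference, at 7.56 FPKM (MyoD-Cre) and 4.18 FPKM (control), a ratio of 1.81 (1.48 to 2.23). Cdh2, N-cadherin, was at 9.05 FPKM (MyoD-Cre) and 6.18 FPKM (control), and Matn2, a matrix protein, at 21.7 FPKM (MyoD-Cre) and 17.3 FPKM (control). The lowest were Sostdc1 at 1.89 FPKM (MyoD-Cre) and 2.16 FPKM (control), Ncam1 at 20.6 FPKM (MyoD-Cre) and 22.5 FPKM (control), and Cdh19. Ncam1 is also expressed by developing muscle fibres, so its value is not specific to glia.

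Signals between axon, matrix and Schwann cell had 15 of 17 genes measured, none past the rule and a median difference of 0.15. Cadm1, an adhesion molecule of axons and epithelia, was highest at 7.70 FPKM (MyoD-Cre) and 4.04 FPKM (control). Itgb4, the laminin receptor subunit of mature Schwann cells and of basal keratinocytes, was at 1.59 FPKM (MyoD-Cre) and 0.804 FPKM (control), and Lamb1, a laminin chain, at 82.8 FPKM (MyoD-Cre) and 64.3 FPKM (control). The lowest were Cadm3, at 1.99 FPKM (MyoD-Cre) and 2.55 FPKM (control), Dag1, the dystroglycan of muscle and Schwann cells, at 43.2 FPKM (MyoD-Cre) and 50.6 FPKM (control), and Bace1, a protease that cleaves neuregulin, at 5.04 FPKM (MyoD-Cre) and 4.88 FPKM (control).

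Genes of the node of Ranvier and the paranode were mostly at the limit, with 3 of 12 measured and none past the rule. Their median difference was -0.11, the only one below 0 among the Schwann lists, and all 3 lay below the median gene. Ank3, ankyrin-G, which anchors sodium channels at the node and is also present in muscle, was at 8.25 FPKM (MyoD-Cre) and 12.4 FPKM (control), a ratio of 0.668. No counting interval is given for Ank3, since its recovered reads imply a length too long for an mRNA. Nrcam was at 0.998 FPKM (MyoD-Cre) and 1.16 FPKM (control). Epb4.1l3, the paranodal scaffold protein 4.1B, was at 14.5 FPKM (MyoD-Cre) and 13.3 FPKM (control).

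The list around Ngfr held neurotrophins, Trk receptors and Ngfr partners, with 7 of 14 genes measured, none past the rule and a median difference of 0.36. Ntf3, neurotrophin 3, was the 1 measured ligand, at 0.903 FPKM (MyoD-Cre) and 1.07 FPKM (control). Ntrk2, the TrkB receptor, was at 4.36 FPKM (MyoD-Cre) and 3.13 FPKM (control). Of the coreceptors, Sort1 was at 8.79 FPKM (MyoD-Cre) and 9.35 FPKM (control), and Sorcs2 at 7.86 FPKM (MyoD-Cre) and 6.90 FPKM (control). Of the intracellular partners, Traf6 was at 6.60 FPKM (MyoD-Cre) and 3.80 FPKM (control), and Ngfrap1 at 83.3 FPKM (MyoD-Cre) and 54.0 FPKM (control). Traf6 and Ngfrap1 lay nearest to the rule in this list, with differences of 0.66 and 0.62.

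Of 14 paralogs of the members, 13 were measured and none passed the rule, with a median difference of 0.36. Of the Pmp22 relatives, membrane proteins of epithelia, Emp1 was at 107 FPKM (MyoD-Cre) and 67.4 FPKM (control), and Emp2 at 19.6 FPKM (MyoD-Cre) and 13.8 FPKM (control). S100a10, an annexin partner, was at 166 FPKM (MyoD-Cre) and 115 FPKM (control), and S100a8, a myeloid protein, at 4.91 FPKM (MyoD-Cre) and 4.50 FPKM (control). Egr1, a relative of Egr2 and an immediate early gene, was at 3.65 FPKM (MyoD-Cre) and 4.27 FPKM (control). Of the immediate early list 4 of 16 measured genes were higher by the rule, among them Nr4a3 at 6.46 FPKM (MyoD-Cre) and 0.381 FPKM (control). Egr1, Egr2 and Egr3 had differences of -0.18, 0.05 and 0.18.

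Another lineage that expresses Sox10 is the melanocyte of the skin. Of 10 melanocyte genes, 3 were measured and 1 was higher by the rule. Dct, a melanin synthesis enzyme of melanoblasts and melanocytes, was at 5.34 FPKM (MyoD-Cre) and 0.381 FPKM (control), a ratio of 14.0 (9.18 to 22.4) from 339 reads (MyoD-Cre) and 23 reads (control). Kit, a receptor shared with mast cells, was at 2.85 FPKM (MyoD-Cre) and 2.81 FPKM (control), and Mitf, the factor of pigment cells, at 1.48 FPKM (MyoD-Cre) and 0.982 FPKM (control). None of the list was at 0 in the MyoD-Cre library, and 3 of 10 were listed at 0 in the control library. The list summed to 10.9 FPKM (MyoD-Cre) and 4.37 FPKM (control). Sox10 had its lower value in the library with the higher melanocyte markers, and their part in its value was not tested.

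**Figure D4:**
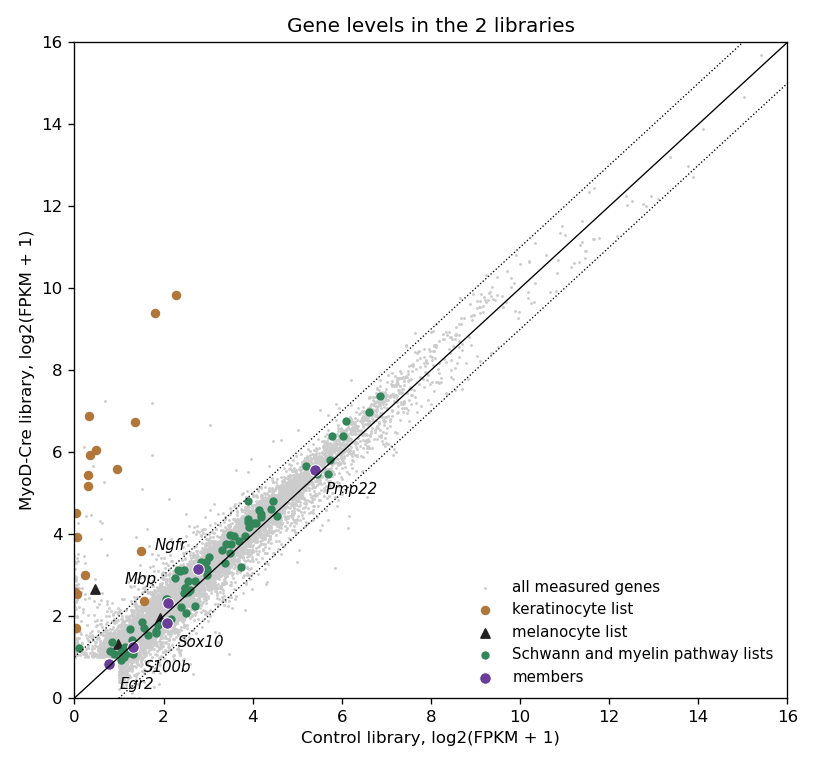
Levels on the log2(FPKM + 1) scale in the MyoD-Cre library (vertical) against the control library (horizontal) for all measured genes, the keratinocyte and melanocyte lists, the Schwann and myelin lists and the 6 members; the solid line marks equal values and dotted lines a difference of 1. The members lie inside the dotted lines, while 16 of 17 keratinocyte genes, Dct and, of the Schwann lists, Tfap2a lie above them.

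Other cells around nerve did not point 1 way. Of 8 perineurial genes 6 were measured, none past the rule, and 4 had differences above 0 and 2 below 0. The lowest was Cldn5, which is also the lowest of the endothelial list, at 11.1 FPKM (MyoD-Cre) and 16.6 FPKM (control). The highest was Cldn1, a tight junction protein of perineurium and epidermis, at 5.03 FPKM (MyoD-Cre) and 2.26 FPKM (control). Of 12 neuronal genes 4 were measured and none passed the rule. Nefm, a neurofilament of axons, was at 2.07 FPKM (MyoD-Cre) and 1.27 FPKM (control), and Uchl1, a neuronal hydrolase, at 3.64 FPKM (MyoD-Cre) and 5.23 FPKM (control). Of 10 oligodendrocyte genes, 4 were listed at 0 in both libraries, Mog, Opalin, Ermn and Olig2, and 6 were above 0 in both. Of these, 1 was measured, Sox17, also an endothelial factor, at 1.59 FPKM (MyoD-Cre) and 1.91 FPKM (control). The list summed to 3.07 FPKM (MyoD-Cre) and 3.27 FPKM (control). The other lists had 12 endothelial genes measured with a median difference of -0.04, 11 of smooth muscle and pericytes with 0.02 and 11 of macrophages with 0.25, of which 1 macrophage gene was higher by the rule and none lower.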

How the data were processed

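Hindlimb RNA of 1 SRSF2 flox/flox MyoD-Cre and 1 SRSF2 flox/flox sample was compared, grouped by the genotype labels. Bowtie 0.12.2 and mm9 appear in the submitters' processing notes, without a role, but the deposited positions of 99.79% of 19368 mRNA genes overlap the gene of that symbol in GENCODE M21, so coordinates are those of GRCm38. Counting tool, annotation and strandedness: not given in the sources used here. Values in FPKM per gene were taken as the authors deposited them. 1 line was empty and is not analysed here.

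The difference was log2((MyoD-Cre FPKM + 1)/(control FPKM + 1)), which understates the change of low genes. With 1 library per group, no test was run and a rule of size was used. Low genes gave FPKM ratios of small whole numbers, and 89 single-exon genes gave 28060573 and 26659452 as the reads that FPKM is relative to in the MyoD-Cre and control libraries. The lowest pair of whole read numbers behind both values, with a whole gene length (relative tolerance 2e-14), was found for 94.7% of 22185 genes above 0 in both. Where GENCODE transcripts moved to the deposited ends matched 1 multiple of that length, that multiple was used, as for Sox10. Otherwise the reads are the lowest pair that fits both values. If the true reads were whole numbers, that pair cannot exceed them, and the intervals are too wide rather than too narrow. For some genes, Ank3, Traf6 and Cdh2 among them, the pair implies a length too long for an mRNA. Reads of such genes are overstated, and intervals from them would be too narrow. The lengths behind the members run from 1063 bases (Egr2) to 3409 bases (Ngfr). Intervals of ratios are exact (Clopper-Pearson), those of levels exact Poisson, both 95%. They cover counting error only, since PCR copies of 1 molecule were not marked. The steps were tested on data simulated with whole reads, which cannot show overstated reads.

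The named genes are Srsf2, the 6 members, up to 3 measured genes at either end of each of 7 Schwann lists and up to 2 at either end of each of 13 other lists with their markers at 0, not all of which are reported here. Erbb3 and Mag, as fixed markers, Fabp4, Dip2a, Rpl21-ps8, Shh and Mlana were added after their values were seen. Members and lists were chosen with earlier results of these data known. Promoter windows are from RefSeq (GRCm38.p6) and were searched for Pmp22, S100b, Egr2 and Ngfr. Windows of Mbp were left out by choice, and Sox10 had no entry. Other pseudocounts, filters, folds and 3 scalings were tried. The scripts ran on Python 3.11.15 with pandas 2.3.3, scipy 1.17.1, matplotlib 3.10.9 and numpy 2.4.6.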

Additional observations from a re-analysis of the deposited data

How the results depend on the processing

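Leaving out a library would leave a genotype empty. No paired analysis was possible because a single library stands for each genotype. None of the 6 members passed the rule in any alternative run, the 1.5-fold rule included. Of 30 recomputed member differences 24 lay inside the counting interval of the reported one. The rest were those of Pmp22 (0.19 as deposited), at -0.0148 under median of ratios, -0.0124 under the trimmed mean of log ratios and -0.0265 without the 50 most abundant genes, and of Ngfr (0.38), at 0.20, 0.20 and 0.19. These scalings multiply the MyoD-Cre library by 0.866, 0.868 and 0.859, which by construction lowers every difference. Egr2 (0.05) also fell below 0, at -0.03, -0.03 and -0.04. Of the 73 measured Schwann list genes 8 were higher with the 1.5-fold rule, beside 1205 of all 13175 measured genes. That list count was 0 with a pseudocount of 5, at 5 FPKM or more or with the 4-fold rule. It was also 0 without the 50 most abundant genes, against 1 as reported. Over all genes the counts of 353 higher and 98 lower were 613 and 204 with a pseudocount of 0.1, 90 and 23 with one of 5, 1205 and 383 with the 1.5-fold rule, 169 and 54 among genes reaching 5 FPKM and 96 and 3 with the 4-fold rule. Lower genes were 170 in number under median of ratios (60.2% of those past the rule higher, against 78.3% as reported), 170 under the trimmed mean (60.2%), 173 without the 50 most abundant genes (59.4%) and 42 among mRNA genes alone (87% higher). Of the medians of the 20 lists and of the 7 Schwann lists pooled, 17 stayed on the same side of the median gene in every alternative that gave a value, and the oligodendrocyte list gave none at 5 FPKM. The exceptions were myelin structure, axon to Schwann signalling, axon and neuron, and the precursor, non-myelinating and repair list. The cause of each change was not tested, beyond the number of genes that a filter or fold leaves to count. Depth limits S100b, with 64 reads (MyoD-Cre) and 66 reads (control). Egr2 had at least 23 reads (MyoD-Cre) and 20 reads (control), and its true reads are not known.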

Other observations

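Over 2 libraries any gene with the same level and ratio has the same pattern, so likeness to a member is weak evidence of anything shared. Measured as the distance between genes in the plane of log2(FPKM + 1) in both libraries, the nearest mRNA gene to Sox10, predicted genes left out, was Zfp758, at 2.55 FPKM in the MyoD-Cre library and 3.23 FPKM in the control library, a distance of 0.0146. The nearest to Pmp22 was Eif3d at 46.6 FPKM (MyoD-Cre) and 40.8 FPKM (control), the nearest to Ngfr was Mrps33 at 7.96 FPKM (MyoD-Cre) and 5.82 FPKM (control), and the nearest to Mbp was Adamts19 at 4.03 FPKM (MyoD-Cre) and 3.31 FPKM (control). Those of S100b and Egr2 were Eefsec at 1.36 FPKM (MyoD-Cre) and 1.48 FPKM (control) and Tlr13 at 0.772 FPKM (MyoD-Cre) and 0.710 FPKM (control). Within a distance of 0.1 there were 37 mRNA genes around Sox10, 33 around Pmp22, 110 around Ngfr, 146 around Mbp, 114 around S100b and 133 around Egr2.

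Some low genes of the Schwann and melanocyte lists that are also known in skin differed in presence. Shh, a ligand of the hair follicle and also induced in injured Schwann cells, was at 0.735 FPKM in the MyoD-Cre library and listed at 0 in the control library, and the melanocyte gene Mlana was at 0.541 FPKM in the MyoD-Cre library and listed at 0 in the control library. Both stayed under 1 FPKM and were not counted as measured, and they were chosen after their values were seen. The part of skin in them was not tested.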
